A study of Mus musculus with 4 samples.

Results

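The contraction of heart and skeletal muscle is switched by troponin, a complex of a calcium-binding subunit (troponin C), an inhibitory subunit (troponin I) and a subunit that ties the complex to tropomyosin (troponin T). Calcium released from the sarcoplasmic reticulum binds troponin C, which pulls troponin I off actin and lets tropomyosin move so that myosin can attach. Mammals have separate genes for the subunits of heart, slow and fast muscle. The 8 genes examined here were chosen by name, as the rows of the deposited transcript table whose symbol is Tnnt2 (cardiac troponin T), Tnnt1 (slow), Tnnt3 (fast), Tnni3 (cardiac troponin I), Tnni1 (slow), Tnni2 (fast), Tnnc1 (troponin C of heart and slow muscle) or Tnnc2 (fast), out of 20701 gene symbols. In the embryonic heart the slow troponin I of Tnni1 is made before the adult cardiac form of Tnni3.

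RNA-Seq had been performed on 4 libraries of cardiac progenitor cells (CPCs) differentiated for 5 days from mouse E14 Tg(Nkx2-5–EmGFP) embryonic stem cells (ESCs), 2 from control clones and 2 from Isl1-/- clones made with CRISPR/Cas9 (Isl1_KO). Cells of both groups carried the Nkx2-5–EmGFP reporter and were sorted for green fluorescence before RNA isolation, and the libraries of a group came from different clones. The comparison asks how troponin gene expression in these progenitors differs when Isl1, a LIM-homeodomain factor of the second heart field, is missing. The series' design text speaks of a knockdown, whereas the titles, the genotype label and the methods give a knockout, which is followed here.

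With 1 transcript entry per gene, the libraries held between 8821517 and 13186109 counts, and the floor of 3 counts lay between 0.228 and 0.340 counts-per-million (CPM). The targeted gene followed the labels: Isl1 stood at 35.1 and 35.7 CPM in control and at 1.31 and 2.08 CPM in Isl1_KO (log2 fold change −4.40, SE 0.21, adjusted p = 0.00277, edgeR's quasi-likelihood test). The clones of a group were unequally alike: against counting error, the chi-square divided by its degrees of freedom was 1.14 for the controls over 12530 genes (p = 8.83e-26) and 18.7 for Isl1_KO over 12656 genes. The controls were counted as 2 samples because a difference was still found and the methods name 2 clones, but how independent they are is uncertain from these values, which bears on every standard error and p below. Of the 10 cardiac progenitor markers, 6 were lower and 0 higher among 9 tested, and the targeted Isl1 was 1 of the 6. Nkx2-5 was also lower (21.1 and 19.8 CPM in control, 4.77 and 4.34 CPM in Isl1_KO), although every library had been sorted on its reporter. Fgf10 alone had a positive log2 fold change (0.83, adjusted p = 0.283, edgeR). In bulk libraries, fewer cells of a type and less RNA per cell cannot be told apart.

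Of the 8 troponin genes, 7 passed the filter on low counts. In Isl1_KO, 3 were lower (Tnnt2, Tnni1 and Tnnc1), 0 were higher, and 4 did not pass an adjusted p of 0.05 (Tnnt1, Tnnt3, Tnni2 and Tnni3). Over all 12715 genes tested, 1.94% were called lower and 0.503% higher. Without adjustment, Tnnt3 (higher) and Tnnt1 (lower) also had p under 0.05, but Tnnt1 had passed the filter only through the control libraries. At that threshold stood 2957 of all 12715 genes tested (edgeR). DESeq2 also called 3 lower and 0 higher. The median log2 fold change of the 7 was −1.14, beside −0.0027 over all genes. The cut-offs used in the study (log2 fold change beyond 0.58 either way, p under 0.05 without adjustment), applied to a DESeq2 Wald test, were passed by the same 3 genes, all lower, beside 4.57% of 16855 genes that were lower by them.

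**Figure D1:**
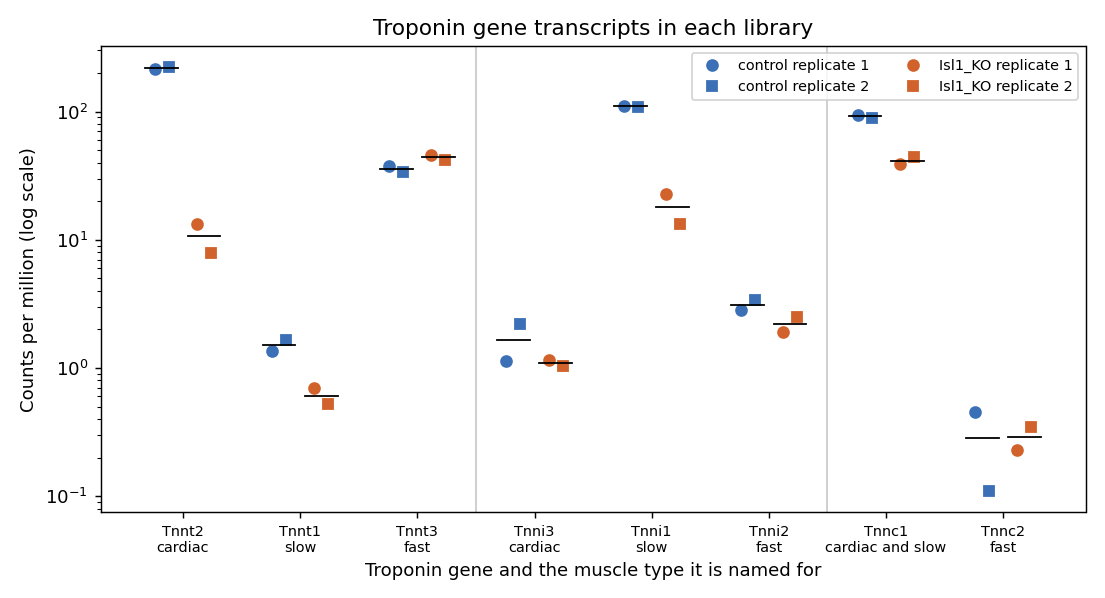
CPM (log axis) of the 8 troponin genes in each library, grouped by subunit from left to right as troponin T, I and C. Points are single libraries and bars are group means; Tnnt2 fell from 215 and 222 CPM in control to 13.4 and 7.89 CPM in Isl1_KO, while Tnnt3 stayed between 33.9 and 46.0 CPM.

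Tnnt2 encodes cardiac troponin T, an early gene of heart muscle, and showed the largest difference of the 7 tested. Control clones gave 1894 and 2028 counts and Isl1_KO clones 174 and 91, which are 215, 222, 13.4 and 7.89 CPM. The groups lay far apart, and Isl1_KO replicate 2 was below replicate 1. Its mean level was 218 ± 4.88 CPM for control against 10.6 ± 3.87 CPM for Isl1_KO (SD, n = 2), and the log2 fold change was −4.35 (SE 0.22, adjusted p = 0.00277, edgeR), a 20.4-fold decrease. Per length, Tnnt2 ranked 218th and 208th among all genes by RPKM in control, and 6260th and 7815th in Isl1_KO.

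Tnni1 encodes the slow skeletal troponin I. Its counts were 978 and 992 in control and 296 and 153 in Isl1_KO, or 111, 109, 22.8 and 13.3 CPM. The groups did not overlap, and again Isl1_KO replicate 2 was the lower of its pair. The log2 fold change was −2.60 (SE 0.24, adjusted p = 0.0144, edgeR), which is 6.06-fold. Tnni1 moved from ranks 522 and 530 by RPKM in control to 4139 and 5897 in Isl1_KO.

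Tnnc1 encodes the only troponin C of the heart, which is also that of slow muscle. It was at 828 and 813 counts in control and 508 and 506 in Isl1_KO, or 94.0, 89.0, 39.0 and 43.9 CPM. The groups did not overlap, and here replicate 2 was the higher Isl1_KO library. The log2 fold change was −1.14 (SE 0.09, adjusted p = 0.00902, edgeR), a 2.21-fold decrease.

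The calls of Tnni1 and Tnnc1 rested on having both control libraries. Without control replicate 1 or 2 the adjusted p was 0.134 or 0.108 for Tnni1 and 0.184 or 0.125 for Tnnc1, at log2 fold changes of −2.59 or −2.62 and −1.10 or −1.18, so that 1 troponin gene, Tnnt2, was called lower (adjusted p = 0.0332 or 0.0251). In these fits the number of genes called over all genes also dropped, from 311 to 27 and 29.

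The 250 bases in front of a RefSeq start site of each of the 3 genes that fell are shown, since this is the promoter sequence of the genes that changed. Tnnt2 and Tnni1 have 2 start sites each in that table, of which the first along the chromosome is shown. Each was taken from the RefSeq table of GRCm38.p6 and found at a single place in NCBIM37 (mm9), whose coordinates are given. Capitals mark matches, on either strand, to the GATA factor word AGATAA and to the M-CAT word CATTCC, which TEAD factors bind.
Tnnt2 (chr1:137732661-137732910, plus strand): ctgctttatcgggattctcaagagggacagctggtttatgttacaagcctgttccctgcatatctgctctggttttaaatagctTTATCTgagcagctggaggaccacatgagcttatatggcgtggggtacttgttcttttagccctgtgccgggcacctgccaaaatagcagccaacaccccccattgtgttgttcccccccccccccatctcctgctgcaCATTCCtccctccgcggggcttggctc
Tnni1 (chr1:137695748-137695997, plus strand): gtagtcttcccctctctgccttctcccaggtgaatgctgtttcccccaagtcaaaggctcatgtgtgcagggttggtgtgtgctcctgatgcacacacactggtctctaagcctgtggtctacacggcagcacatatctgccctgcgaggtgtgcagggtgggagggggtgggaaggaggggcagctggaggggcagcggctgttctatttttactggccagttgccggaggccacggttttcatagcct
Tnnc1 (chr14:32021248-32021497, plus strand): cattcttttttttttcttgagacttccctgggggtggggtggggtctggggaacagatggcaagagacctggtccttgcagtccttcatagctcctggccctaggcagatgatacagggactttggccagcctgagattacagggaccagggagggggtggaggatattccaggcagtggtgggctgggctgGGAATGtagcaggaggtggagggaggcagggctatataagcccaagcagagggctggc
The Tnnt2 stretch holds the GATA word on the minus strand at −166 to −161 and the M-CAT word at −27 to −22, counted back from −1, the base before the start. In Tnnc1 the M-CAT word lies on the minus strand at −58 to −53. The stretches of both Tnni1 starts and that of the second Tnnt2 start (chr1:137733316-137733565, not shown) hold none of the words searched, which also included the Nkx2-5 word CAAGTG, the LIM homeodomain word CTAATG, the core promoter word TATAAA, the MEF2 motif and the CArG box of SRF. Over 32841 RefSeq upstream stretches of this length, 9.99% held the GATA word, 12.6% M-CAT, 11.6% the Nkx2-5 word, 6.36% the LIM homeodomain word, 12.4% the core promoter word, 2.92% the MEF2 motif and 1.47% the CArG box. Among the genes that were not called, the Tnnt1 stretch has the core promoter word at −30 to −25, and those of Tnni3 and Tnnc2 hold none of the words. A match is a match of letters and was not tested as a binding site.

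Tnnt3 encodes fast skeletal troponin T, and it behaved unlike Tnnt2. It was at 37.3 and 33.9 CPM in control and at 46.0 and 41.8 CPM in Isl1_KO, from 329, 310, 599 and 482 counts. The Isl1_KO libraries were the higher, but the log2 fold change of 0.30 (SE 0.11) did not pass the test (adjusted p = 0.187, edgeR). Left with the control pair and 1 Isl1_KO library, the fit called Tnnt3 higher, with adjusted p = 0.0266 without Isl1_KO replicate 1 and 1.6e-04 without replicate 2 (log2 fold changes 0.23 and 0.37). The spread in these fits comes from the closely matched control libraries alone, and 6350 and 4176 genes were then called over all genes.

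The remaining troponin genes were scarce. Tnni3, the adult cardiac troponin I, gave 10 and 20 counts for the control clones against 15 and 12 for Isl1_KO, or 1.14, 2.19, 1.15 and 1.04 CPM, and the groups overlapped (log2 fold change −0.60, SE 0.43, adjusted p = 0.451, edgeR). Tnni2, the fast troponin I, was at 2.84, 3.39, 1.92 and 2.52 CPM (log2 fold change −0.50, SE 0.29, adjusted p = 0.356). Tnnt1, the slow troponin T, gave 12 and 15 counts for control against 9 and 6 for Isl1_KO (log2 fold change −1.30, SE 0.39, adjusted p = 0.145). It had passed the filter only through the control libraries. Without Isl1_KO replicate 1 or 2 its log2 fold change was −1.53 or −1.12. Tnnc2, the fast troponin C, had 4, 1, 3 and 4 counts and was not tested. No difference of Tnni3 was found at these counts, and those of Tnnc2 lay near the floor.

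To compare levels between genes, the deposited RPKM values, which are per length, were used. In control the order by mean was Tnnt2 (102 RPKM), Tnnc1 (74.2), Tnni1 (57.6), Tnnt3 (19.4), Tnni2 (2.67), Tnni3 (1.16), Tnnt1 (0.865) and Tnnc2 (0.23). Neighbours in this order did not overlap except Tnni3, at 0.79 and 1.52 RPKM, and Tnnt1, at 0.78 and 0.95 RPKM. In Isl1_KO the order was Tnnc1 (34.3 RPKM), Tnnt3 (24.3), Tnni1 (9.57), Tnnt2 (5.05), Tnni2 (1.94), Tnni3 (0.775), Tnnt1 (0.355) and Tnnc2 (0.245). Here no neighbours overlapped, though the lowest Tnni1 value (7.23 RPKM) was close to the highest of Tnnt2 (6.25 RPKM), and Tnnt1 at 0.31 RPKM was beside Tnnc2 at 0.30 RPKM.

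The make-up of troponin T transcripts was reversed. Tnnt2 held 82.7% and 84.2% of the summed troponin T RPKM in control, against 19.7% and 13.8% in Isl1_KO. Tnnt3 held 16.7% and 15.0% in control and 79.0% and 85.1% in Isl1_KO, so that the fast gene was the main troponin T transcript there. The ratio of Tnnt2 to Tnnt3 went from 5.29 ± 0.477 to 0.206 ± 0.0618 (SD, n = 2). Of the levels behind these shares, that of Tnnt2 passed the test and that of Tnnt3 did not. With 2 libraries against 2, an exact permutation test gave p = 0.333, two-sided, for each share and ratio in which the groups did not overlap, and this is the smallest p that the design allows.

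Troponin I kept its main gene. Tnni1 held 94.8% and 92.8% of troponin I RPKM in control and 82.98% and 70.8% in Isl1_KO, while the fast Tnni2 held 3.96% and 4.73% in control and 11.4% and 21.8% in Isl1_KO without a called difference in level. The cardiac Tnni3 held 1.29% and 2.48% in control and 5.58% and 7.35% in Isl1_KO. Troponin C was almost only Tnnc1, with at least 99.2% in every library.

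**Figure D2:**
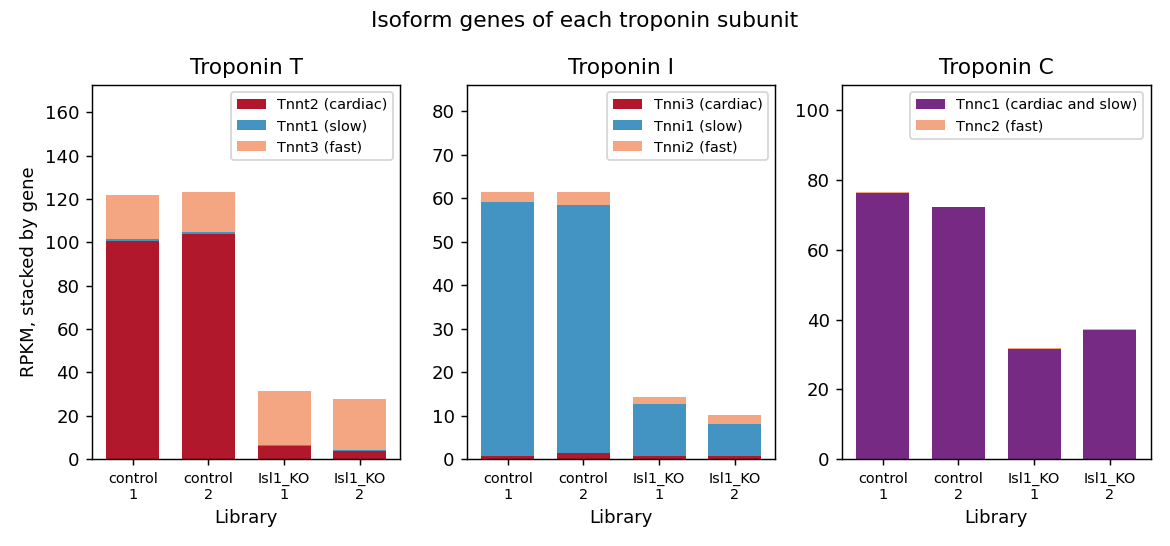
RPKM of the isoform genes of troponin T, I and C, stacked, in each of the 4 libraries, with an axis for each subunit that starts at 0. In Isl1_KO the troponin T bar consists mainly of Tnnt3 (79.0% and 85.1%), troponin I remains mainly Tnni1 and troponin C is Tnnc1.

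The subunits also differed in their totals. Troponin T went from 123 ± 1.12 to 29.7 ± 2.74 RPKM (4.12-fold), troponin I from 61.4 ± 0.0566 to 12.3 ± 2.92 RPKM (5.00-fold) and troponin C from 74.4 ± 3.07 to 34.5 ± 3.87 RPKM (2.16-fold; SD, n = 2). The complex holds the subunits in equal number, and at the transcript level troponin T was above troponin C in control, with a ratio of 1.59 and 1.71, and at or below it in Isl1_KO, with 0.997 and 0.746. Troponin I over troponin C was 0.802 and 0.849 in control and 0.451 and 0.274 in Isl1_KO. The ratio of Tnnt2 to Tnnc1 went from 1.32 and 1.44 to 0.198 and 0.104, and that of Tnnt2 to Tnni1 from 1.73 and 1.83 to 0.525 and 0.531 (exact permutation p = 0.333 for each, two-sided).

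Because Tnnt3 and Tnni2 are known from fast skeletal muscle, the markers of that tissue were examined. The 18 skeletal muscle markers summed to 13.8 and 17.5 CPM in control and 12.2 and 13.6 CPM in Isl1_KO, less than Tnnt3 alone in every library. Myod1, Myf5 and Myh8 were listed at 0 in all 4 libraries, and Myog, Myf6, Myh1 and Myh4 stood at 0 to 2 counts. Other markers of the list were detected in every library. Actn3 gave 40 and 58 counts in control and 59 and 63 in Isl1_KO. Mylpf gave 21 and 16 counts in control and 25 and 17 in Isl1_KO. Of the 4 markers tested, 0 were called by edgeR or DESeq2 and 0 had an unadjusted p under 0.05; the extremes were Ryr1 at a log2 fold change of −0.50 and Atp2a1 at 0.62. The 8 smooth muscle markers summed to 2652 and 2650 CPM in control and to 2303 and 803 CPM in Isl1_KO. That list, in which 0 of 8 genes were called by either tool or had an unadjusted p under 0.05, separated the Isl1_KO replicates as Tnnt2 and Tnni1 did, replicate 2 being lower, and its part in those values was not tested. Blood markers summed to 534, 545, 403 and 286 CPM, endothelial markers to 220, 232, 234 and 204 CPM, pluripotency markers to 31.0, 32.7, 26.0 and 49.5 CPM, and endoderm markers to 55.4, 54.9, 53.3 and 28.2 CPM, in the same order of libraries. These sums hide unequal members. Of 8 tested blood genes 6 had an unadjusted p under 0.05, beside 2957 of all 12715 genes tested (edgeR). The list median was 0.34, and the globin genes had log2 fold changes of −2.83 (Hbb-y) and −2.13 (Hba-x), against 0.93 for Tal1 and 0.85 for Gata1. Of 6 tested endothelial genes 4 had an unadjusted p under 0.05 (median −0.81), and those with a fitted fold ran from Tek at −1.18 to Flt1 at 0.63. Emcn passed the filter on low counts only through the control libraries. It had no fitted fold, with 15 and 10 counts in control and 0 in both Isl1_KO clones. This is at least 5.31-fold lower against a floor of 3 counts per library, and Emcn was not called (adjusted p = 0.0627, edgeR). In these lists edgeR called 1 gene, Runx1, a blood stem cell factor named here for that call, as higher (log2 fold change 0.57, adjusted p = 0.0335), whereas DESeq2 called 2 blood genes higher and 1 lower, and 1 endothelial gene in each direction. Neither tool called a pluripotency or endoderm gene, and 0 of those tested had an unadjusted p under 0.05.

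The troponin genes lie on 4 chromosomes, in 3 troponin I and T pairs and 2 single troponin C genes (GENCODE vM1, NCBIM37). Tnni1 (chr1:137679642-137707566, plus strand) and Tnnt2 (chr1:137737452-137748837, plus strand), both lower, are separated in this annotation by 29.9 kb that hold Lad1. The RefSeq starts used for the promoter stretches differ from these spans. Both Tnnt2 starts lie upstream of its GENCODE span, and both Tnni1 starts lie inside its span. The gap therefore depends on the annotation used. Tnni3 (chr7:4469907-4475831) and Tnnt1 (chr7:4456172-4467984), both on the minus strand, are separated by 1.92 kb. Tnni2 (chr7:149627713-149630315) and Tnnt3 (chr7:149684741-149701914), on the plus strand, are 54.4 kb apart with Lsp1 between. Tnnc1 is at chr14:32021498-32024915 (plus strand) and Tnnc2 at chr2:164602661-164605467 (minus strand).

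The genes around the troponin genes were then examined. Of 34 other genes within 100 kb that the deposited table holds under the annotation's symbol, 25 were tested. Of these, 0 were called by edgeR or DESeq2 and 4 had an unadjusted p under 0.05. Beside them, 2957 of all 12715 genes tested had an unadjusted p under 0.05 (edgeR). Over all genes edgeR called 1.94% lower and 0.503% higher, so that 0 of 25 does not set the neighbours apart from other genes. The log2 fold changes of the 25 lay between −0.49 (Csrp1) and 0.39 (Phf7). Lad1, between the 2 genes that fell on chromosome 1, was at 23.6 and 27.8 CPM in control and 20.1 and 25.7 CPM in Isl1_KO (log2 fold change −0.17, SE 0.17, adjusted p = 0.582). Csrp1, a LIM protein gene of smooth muscle upstream of Tnni1, was at 586 and 589 CPM in control and 559 and 279 CPM in Isl1_KO (adjusted p = 0.406). Ube2c, beside Tnnc2, had the smallest adjusted p of the 25 (0.0728, log2 fold change 0.36).

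**Figure D3:**
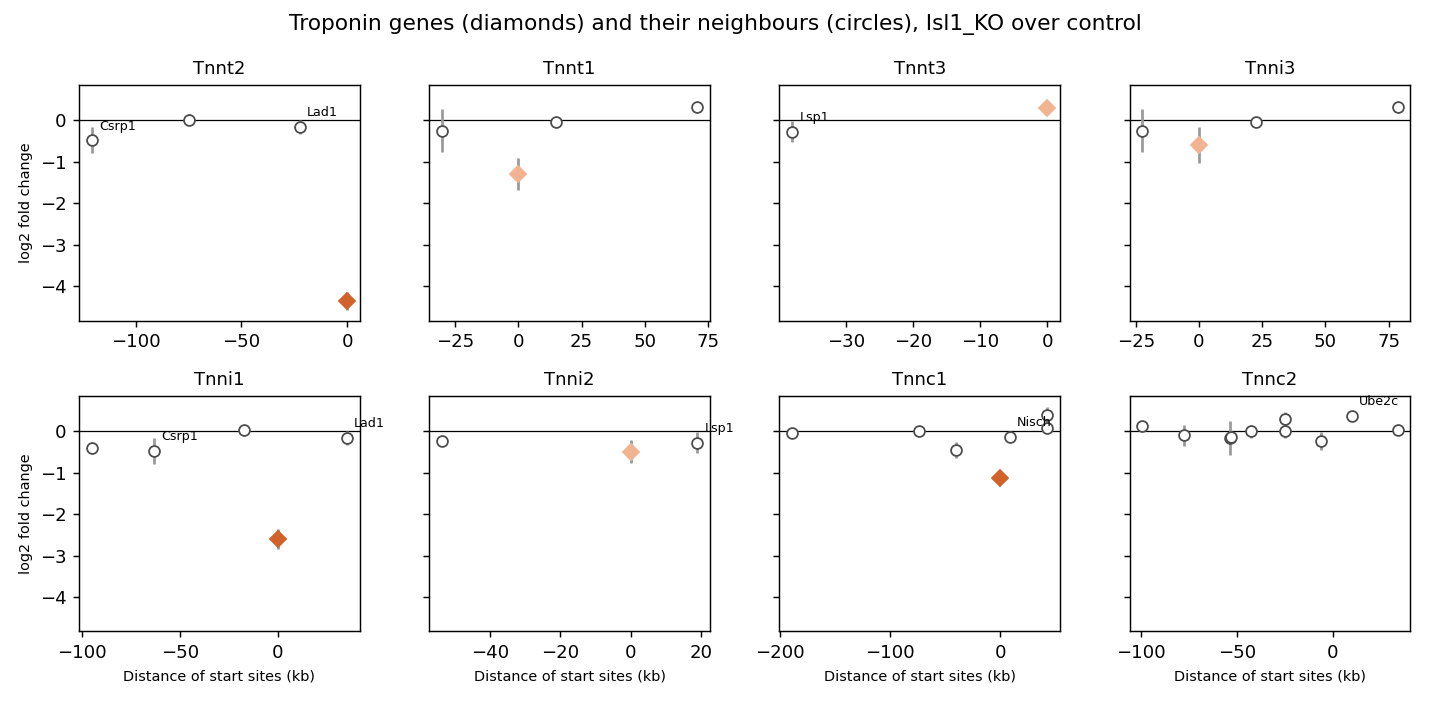
Log2 fold change (Isl1_KO over control, bars ± SE) of tested genes within 100 kb of each troponin gene, against the distance between start sites in kb along the chromosome, in the direction of transcription of the troponin gene named above each panel. Diamonds are the troponin genes, dark where the adjusted p was under 0.05; the neighbours lie between −0.49 and 0.39, and Tnnc2 has no diamond because it was not tested.

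The values of 3 members could include reads of another gene, since counting took both strands together and exons of a gene can overlap those of another on its own strand. Tnnc1 lies inside the span of Nisch on the opposite strand without overlapping its exons, and Nisch was at 863, 865, 828 and 732 CPM (log2 fold change −0.15, adjusted p = 0.352). Exons of Tnni3 overlap those of 6030429G01Rik on the same strand, with which 51 of 1059 words of 36 bases are shared, and exons of Tnnc2 overlap those of Ube2c on the opposite strand. What part of the counts of these members came from the other gene was not tested. No other troponin gene shared a 36-base word with another gene, and coding sequences within a subunit were between 66.4% (Tnni3 and Tnni1) and 70.6% (Tnnc1 and Tnnc2) identical. Tnnt2 had 9 transcript entries and Tnnt3 had 15, with summed counts of 4034 to 4187 and 1459 to 1720, and since entries of a gene share reads, splice forms cannot be told apart.

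The rest of the sarcomere was then examined by lists. Among 9 tested thin filament partners, the actin and tropomyosin system on which troponin sits, 3 were lower and 0 higher (median log2 fold change −0.30). Actc1, cardiac actin, was at 332 and 324 CPM in control and 64.6 and 26.0 CPM in Isl1_KO (log2 fold change −2.85, SE 0.41, adjusted p = 0.0397), and Nebl, the cardiac nebulin relative, fell by 3.88 on the log2 scale (adjusted p = 0.00277). Tmod1, the pointed-end cap of the thin filament, named here because it completes the 3, fell by 1.11 on the log2 scale. The tropomyosins, which troponin T binds, did not pass: Tpm1 was at 2518, 2536, 2931 and 1966 CPM (log2 fold change −0.05, adjusted p = 0.911), and Tpm3 had a log2 fold change of 0.10 (adjusted p = 0.429).

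Thick filament genes and titin were lower in 10 of 11 tested genes and higher in 0, with a median log2 fold change of −5.76. Some of them, Mybpc1 and Mybpc3 included, passed the filter on low counts only through the control libraries, where they were high, and with at least 10 counts required in every library 7 were called. Mybpc3, cardiac myosin binding protein C, went from 62.1 and 60.2 to 0.615 and 0.260 CPM (log2 fold change −7.09, SE 0.24, adjusted p = 0.000776). Mybpc1 gave 13 and 19 counts for control and 0 for both Isl1_KO clones, which is at least 6.75-fold lower against a floor of 3 counts per library, and with this bound the list's median is −5.67. Myom1, an M-band protein gene, fell by 3.41 on the log2 scale (adjusted p = 0.00714), while Mybph did not pass at −1.52 (adjusted p = 0.0627). Myom1, at −3.41, had the smallest decrease among the called genes of this list with a fitted fold, beside −1.14 for Tnnc1, −2.60 for Tnni1 and −4.35 for Tnnt2. The difference between the lists was not tested.

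Genes that supply or remove the calcium that troponin C senses were lower in 6 of 10 tested genes and higher in 0 (median log2 fold change −2.25). Slc8a1, the sodium-calcium exchanger, fell by 4.74 on the log2 scale (SE 0.27, adjusted p = 0.00369), and Pln, which restrains the calcium pump of the sarcoplasmic reticulum, fell by 2.96 (adjusted p = 0.0397). Pln gave 18 and 22 counts in control and 3 and 4 in Isl1_KO. It thus passed the filter on low counts only through the control libraries. With at least 10 counts required in every library, 5 calcium genes were called. Asph, at a log2 fold change of 0.16, and S100a1, at −0.36, did not pass (adjusted p = 0.21 and 0.353).

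Where 1.94% of all genes were lower, 1 of 7 tested troponin I kinases was lower and 0 were higher (median log2 fold change −0.16). This was Prkce, protein kinase C epsilon, at 47.5 and 44.9 CPM in control and 28.1 and 28.5 CPM in Isl1_KO (log2 fold change −0.71, SE 0.09, adjusted p = 0.0359). Prkca was at −0.38, Prkaca at −0.05 and Stk4 at 0.20, with adjusted p between 0.179 and 0.742. Tnni3k, a kinase named for its binding to cardiac troponin I, was listed at 0 in all 4 libraries.

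Cardiac regulators were lower in 8 of 14 tested genes and higher in 0 (median log2 fold change −1.36). Gata5 had the largest decrease (4.73 on the log2 scale, adjusted p = 0.00902), followed by Isl1 itself, the targeted gene. Gata5 gave 18 and 5 counts in Isl1_KO, and with at least 10 counts required in every library 7 regulators were called. Tead1, whose product binds M-CAT, and Mef2a did not pass, at −0.22 and −0.19 (adjusted p = 0.293 and 0.242). The counts of these lists were lower when a control library was left out: without control replicate 1 or 2, 7 thick filament, 1 thin filament, 1 calcium, 0 kinase and 3 regulator genes were called. With Isl1_KO replicate 1 or 2 left out, more genes were called in each of these lists, and also over all genes. The spread in those fits came from the closely matched control libraries alone, so the rise is not particular to these lists.

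**Figure D4:**
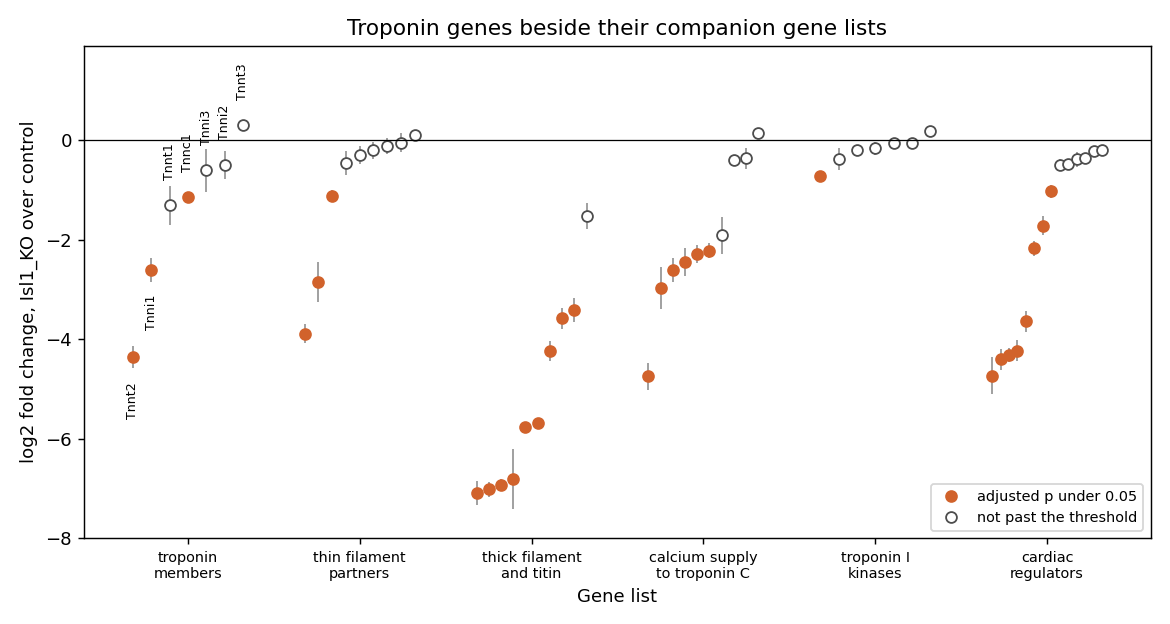
Log2 fold change (Isl1_KO over control, bars ± SE) of the tested genes of each list, filled where the adjusted p was under 0.05, with the 7 tested troponin genes named. Mybpc1, at 0 counts in both Isl1_KO libraries, has no fitted fold and is left out; the thick filament and titin genes have the lowest values.

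The genes with the pattern most like each troponin gene were taken by the Euclidean distance of log2 CPM over the 4 libraries, after centring each gene on its mean; this is a description over 4 points. Closest to Tnnt2 were Mef2c, a MADS-box cardiac transcription factor gene (distance 0.124), Csrp3 (0.250) and Smpx (0.257), both muscle genes. The median distance of all genes was 4.43. In Isl1_KO, Csrp3 (0.154 and 0.0868 CPM) and Smpx (0.0769 and 0 CPM) lay below the floor of 3 counts. Their distances therefore depend on the prior count of 1 used for log2 CPM, and their likeness to Tnnt2 is uncertain. Mef2c was at 171 and 177 CPM in control and 11.5 and 6.85 CPM in Isl1_KO, with replicate 2 the lower library as for Tnnt2. Closest to Tnni1 were Ryr2, the calcium release channel of the heart (0.103), Meis1, a homeodomain factor gene (0.150), and Ephb1 (0.163), beside a median of 2.71. Ryr2 was at 93.5 and 101 CPM in control and 20.1 and 11.6 CPM in Isl1_KO.

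Tnnc1 was nearest to Piezo2, a mechanically gated channel gene (0.0651), Rassf4 (0.0682) and Herc6 (0.0746), beside a median of 1.18. None of these is a sarcomere gene. Tnnt1 was nearest to Smarcd3, which encodes the Baf60c subunit of the SWI/SNF complex (0.125), Tril (0.129) and Ppm1k (0.139), beside a median of 1.26. Its own pattern rests on 12 and 15 counts in control and 9 and 6 in Isl1_KO, so these likenesses are uncertain. Tnnt3 was nearest to 9130401M01Rik (0.0328), Ndufa7 (0.0331) and 6330408A02Rik (0.0390), Tnni2 to Phyhipl (0.0392), Fsd1 (0.0868) and Pm20d1 (0.0936), and Tnni3 to Rnd1 (0.106), Paqr7 (0.174) and H2-Oa (0.185). For these flat genes small distances are common, the median over all genes being 0.428 for Tnnt3, 0.663 for Tnni2 and 0.867 for Tnni3.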

How the data were processed

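Per the labels and methods, the authors mapped stranded poly(A) reads to mm9 with STAR (introns of 20 to 500000 bases) and counted exonic reads per RefSeq transcript with HOMER on both strands. The counts deposited are unadjusted whole reads of each entry. RPKM columns in the deposited table came from edgeR, and recomputation differed by at most 0.751% for entries with at least 200 counts. Versions are not given in the sources used here. Columns of the authors' DESeq2 comparison (mean, fold change, error, statistic and p-values) were not used.

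Where a symbol had several entries, that with the most counts was used. The test was edgeR 4.0.16's two-sided quasi-likelihood F test without covariates (TMM, filterByExpr; R 4.3.3), adjusted by Benjamini-Hochberg over 12715 genes, threshold 0.05, and tested on simulated data. SE is the coefficient over the root of F. CPM used effective library sizes. p-values measure the spread between 2 clones a group, and floors cover counting error only. Alternatives were DESeq2 1.42.0, its size factors, other filters, all entries, a replicate block and leaving out each library; for shares, CPM and the mean over entries. Positions, coding identity and neighbours came from GENCODE vM1 on NCBIM37, and upstream sequences from RefSeq (GRCm38.p6), where 6 of 8 members matched, without Tnnt3 and Tnni2. The planned protein alignment was not run. Python 3.11.15, scipy 1.17.1, Biopython 1.88 and matplotlib 3.10.9 were also used.

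Members, lists and tests were chosen with earlier results of these data known. Named genes were the members, Isl1, the 2 lowest and 2 highest log2 fold changes of a list, the 3 most similar genes per member and neighbours within 100 kb; the marker lists of other cell types are given by their sums. A companion list is not reported here.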

Additional observations from a re-analysis of the deposited data

How the results depend on the processing

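Under DESeq2, DESeq2's size factors, no filter, at least 10 counts in every library, all entries and the replicate block, each of the 7 tested members kept its direction and its side of the threshold, except that Tnnt1 could not be tested with at least 10 counts in every library. The log2 fold change stayed between −4.37 and −4.34 for Tnnt2, −2.64 and −2.59 for Tnni1 and −1.15 and −1.13 for Tnnc1. Deviations from the group means of the libraries numbered 1 had a correlation of 0.0144 over 12715 genes. Since the controls differ by little more than counting error, this cannot show whether the replicate numbers pair the libraries. With the replicate block 3 troponin genes were lower, Tnnt2 at −4.37.

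Over all genes, 311 were called, 604 by DESeq2, 492 with no filter and between 27 and 6350 with a library left out. Leaving out a library gave 1 to 4 troponin genes lower and 0 to 1 higher, with log2 fold changes of −4.79 to −4.03 (Tnnt2), −3.05 to −2.27 (Tnni1), −1.23 to −1.06 (Tnnc1), −1.53 to −1.12 (Tnnt1), −0.99 to −0.05 (Tnni3), −0.70 to −0.31 (Tnni2) and 0.23 to 0.37 (Tnnt3). It gave 1 to 7 thin filament, 7 to 11 thick filament, 1 to 9 calcium, 0 to 5 kinase and 3 to 14 regulator genes; the lone library is assumed to vary like the others. With CPM in place of RPKM the control shares were 85.5% for Tnnt2, 13.9% for Tnnt3 and 95.8% for Tnni1, the lengths no longer being divided out. Depth limits Tnnt1, Tnni3 and Tnnc2.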
